A study of Rattus norvegicus with 17 samples.

Results

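Metallothioneins are small cysteine-rich proteins that bind zinc and copper in the cytosol, and the genes described here are 3 of them together with 4 genes that sense or carry zinc. The 7 members are Mt1, Mt2A, Mt3, the metal-sensing transcription factor Mtf1, the zinc exporter Slc30a1 and the zinc importers Slc39a10 and Slc39a14. They were taken by gene symbol from the annotation of the array, with every probe set of each, which gave 9 of the 29214 probe sets on the array and 7 of its 14506 named genes. They were put together as a zinc group after Mt1 and Mt2A had been seen to be much higher with phenylephrine than with control plasma. The group was thus chosen by the measured values of that comparison, which is described and not tested here.

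The study cultured ventricular myocytes of neonatal Sprague-Dawley rats, an outbred laboratory strain, and its labels give the cultures as 5 days old. Cultures received uremic plasma, the plasma of kidney failure, at 10%, taken either before nocturnal hemodialysis (NHD, long dialysis during the night) or after it. Other cultures received control plasma, whose share is not given. The remaining cultures received phenylephrine, which acts on alpha-adrenergic receptors and enlarges myocytes, with no statement of its medium; their labels say only PE, read here as phenylephrine, and carry the same general treatment text as all others. RNA was read on 17 Affymetrix arrays, namely 6 for plasma before and 6 for plasma after NHD, 3 for control plasma and 2 for phenylephrine. Samples of a group are labelled biological replicates without a statement of separate cultures or plasma donors, so that the p-values measure the spread between these samples, which may in part be technical.

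When zinc in the cytosol rises, Mtf1 binds it, enters the nucleus and switches on metallothionein genes and Slc30a1 through short DNA stretches called metal response elements. Metallothioneins then hold the metal and Slc30a1 carries it out of the cell. Glucocorticoids, cytokines and oxidants also raise metallothionein RNA, and in other tissues Mtf1 is known to hold back Slc39a10. Proteins of the Slc39 family (ZIP) move zinc into the cytosol, and those of the Slc30 family (ZnT) move it out of the cell or into vesicles.

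Promoters of 6 of the 7 members, all but Slc39a14, were taken from a table of RefSeq promoters on the rat assembly GRCr8. The core of a metal response element was searched on both strands in the 250 bases before each start as TGCACNC or TGCGCNC, where N is any base. Their reverse complements, GNGTGCA and GNGCGCA, were counted as well, and no matches overlap in the stretches printed. Of 33469 promoters of that length, 20.6% held at least 1 match. The stretches below belong to the 3 metallothioneins, of which Mt1 and Mt2A moved and Mt3 did not pass a test, and to Slc39a10, which moved the opposite way. Each is written 5′ to 3′ on the gene's own strand, and capitals mark the matches.
Mt1: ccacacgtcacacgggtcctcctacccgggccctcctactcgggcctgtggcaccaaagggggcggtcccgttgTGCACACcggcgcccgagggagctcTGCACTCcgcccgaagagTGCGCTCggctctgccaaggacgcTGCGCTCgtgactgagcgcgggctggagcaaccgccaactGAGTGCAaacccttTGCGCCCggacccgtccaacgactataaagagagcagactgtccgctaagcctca
Mt2A: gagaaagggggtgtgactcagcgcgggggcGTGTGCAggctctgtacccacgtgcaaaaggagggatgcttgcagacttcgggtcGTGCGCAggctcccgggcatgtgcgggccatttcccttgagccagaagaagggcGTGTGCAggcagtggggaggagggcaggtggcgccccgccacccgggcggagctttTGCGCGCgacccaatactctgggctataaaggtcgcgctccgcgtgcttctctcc
Mt3: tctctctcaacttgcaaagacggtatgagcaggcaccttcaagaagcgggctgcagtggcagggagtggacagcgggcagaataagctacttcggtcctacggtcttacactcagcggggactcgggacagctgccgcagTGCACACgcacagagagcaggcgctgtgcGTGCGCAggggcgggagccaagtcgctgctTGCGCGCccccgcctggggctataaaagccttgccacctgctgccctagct
Slc39a10: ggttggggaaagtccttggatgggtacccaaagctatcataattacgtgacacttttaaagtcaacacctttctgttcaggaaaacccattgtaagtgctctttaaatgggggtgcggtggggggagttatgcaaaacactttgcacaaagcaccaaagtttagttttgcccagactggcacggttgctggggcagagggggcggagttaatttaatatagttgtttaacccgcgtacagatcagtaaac
The Mt1 stretch lies at chr19:10832976-10833225 on the minus strand and held 6 matches, a number that 0.0269% of promoters reach. Mt2A, at chr19:10838709-10838958 on the minus strand, held 4, which 0.266% reach. Mt3, at chr19:10856081-10856330 on the minus strand, held 3, which 1.17% reach. No match was found for Slc39a10 at chr9:62405183-62405432 on the plus strand. Bases after the start were not searched for any gene, so elements there would not be seen. Mtf1 and Slc30a1 held 2 matches each, which 4.90% of promoters reach. In this assembly Mt1, Mt2A and Mt3 follow each other on chromosome 19 on the same strand, with 5733 bases between the starts of Mt1 and Mt2A and 17372 between those of Mt2A and Mt3. A match is a description of the letters, and no binding was measured.

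The deposited values are log2 values, so that a difference of 1 is a doubling, and levels of different probe sets are not comparable with each other. Values ran from 1.28 to 14.29, and array medians lay from 6.89 to 7.03. Scatter was widest before NHD, where the median SD per probe set was 0.249, against 0.160 after NHD, 0.139 for control plasma and 0.0941 for phenylephrine. On the first principal component, which held 45.7% of the variance, before NHD replicate 5 lay among the control arrays (-66.50, controls -72.24 to -50.31) and replicates 4 and 6 (16.63 and 40.85) in or beyond the range of the after NHD arrays (15.15 to 37.20). The 8 cardiomyocyte markers averaged 12.27 to 13.16 per array, near the top of the scale, with the control arrays (12.27 to 12.30) below all others. Of the 8, 5 were called higher after NHD than with control plasma (median 0.68), where 16.7% of all genes were. With phenylephrine 1 was called higher, where 11.7% of all genes were. Before NHD 2 were called higher, where 4.93% of all probe sets were called in either direction. Among 8 markers of fibroblasts the means ran from 10.02 for Col1a1, a collagen chain, to 6.79 for Tcf21 and 6.12 for Lum, which lie below the median probe set (6.99). The 8 fibroblast markers averaged 6.72 to 9.58 before NHD, 6.89 to 9.35 after NHD, 7.93 to 8.10 with control plasma and 9.54 to 9.79 with phenylephrine. Averages of 8 leukocyte and 7 endothelial markers were 6.01 to 6.94 on every array, and that of 5 smooth muscle markers 10.13 to 11.28. Among these, Kdr was called higher than control in all 3 other groups (1.79 before NHD, 1.58 after NHD, 1.89 with phenylephrine) and Cdh5 with phenylephrine (0.51), while Cnn1 was called lower after NHD (-1.16) and Acta2 with phenylephrine (-0.40). The other endothelial markers were not called, and Tek was lower before and after NHD (-0.56 and -0.57). Endothelial medians against control were -0.01 before NHD, -0.06 after NHD and 0.21 with phenylephrine. Those of smooth muscle were -0.18, -0.31 and -0.40. Smtn was higher in these 3 groups (0.28, 0.27 and 0.53) and Myh11 before NHD (0.37), without a call. In such mixed cultures fewer cells of a type and less RNA per cell cannot be told apart.

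Mt1, the metallothionein that most tissues express, was lowest with control plasma and highest with phenylephrine. Its brighter probe set read 9.15, 8.85 and 8.92 in control replicates 1 to 3. With plasma from before NHD, replicates 1 to 6 read 9.23, 9.21, 10.08, 11.69, 9.31 and 11.37. All lay above the controls, replicates 1, 2 and 5 by little and replicates 4 and 6 by more than 2 log2 units. With plasma from after NHD the values were 12.17, 12.01, 11.77, 11.88, 11.80 and 11.52. These lie close together, and 5 of the 6 are above every before NHD array, replicate 6 being the exception. Phenylephrine gave 12.18 and 12.92, above every plasma array. The second Mt1 probe set ran 0.03 to 0.35 below the first on all arrays and kept the same order of groups, with means of 8.65 ± 0.13 (SD, n = 3) for control, 10.01 ± 1.15 (SD, n = 6) before NHD, 11.77 ± 0.24 (SD, n = 6) after NHD and 12.52 ± 0.53 (SD, n = 2) with phenylephrine.

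**Figure D1:**
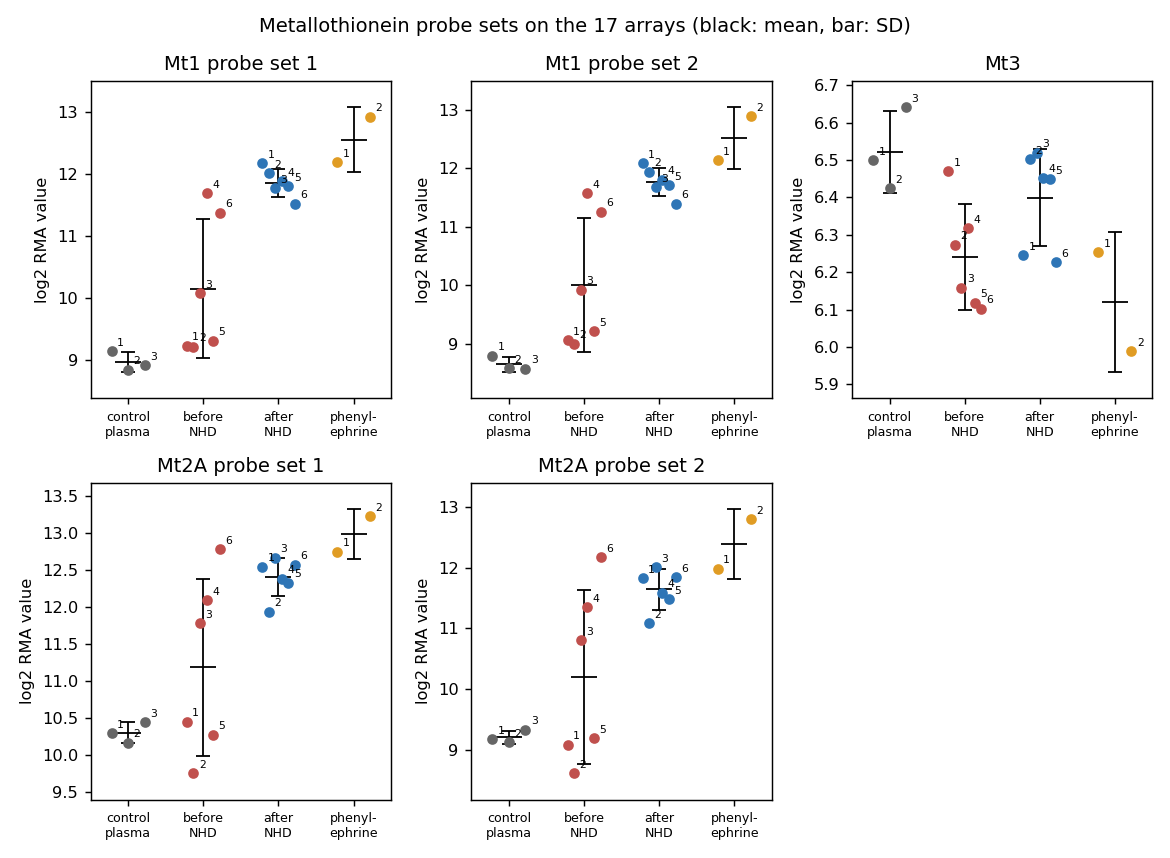
Log2 RMA values of the 5 metallothionein probe sets, 1 panel each with its own scale, by group. Points are arrays with their replicate numbers, black lines the group means and bars the SD. Mt1 and Mt2A are low in control arrays and high in after NHD and phenylephrine arrays, while the before NHD arrays spread from one level to the other, and Mt3 stays between 5.99 and 6.64.

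Mt2A, the second widely expressed isoform, had the same order of group means. Control arrays read 10.30, 10.17 and 10.45 on its brighter probe set. Before NHD, replicates 1 to 6 read 10.45, 9.76, 11.78, 12.09, 10.28 and 12.78. Replicates 1 and 5 lay at the control level and replicate 2 below it, and replicate 6 lay above every after NHD array. After NHD arrays read 12.54, 11.94, 12.66, 12.38, 12.33 and 12.57, all above the controls but within the before NHD range. Phenylephrine gave 12.75 and 13.22, and only the first of these lay below the highest before NHD array. Its dimmer probe set gave means of 9.20 ± 0.11 (SD, n = 3), 10.20 ± 1.44 (SD, n = 6), 11.64 ± 0.33 (SD, n = 6) and 12.39 ± 0.58 (SD, n = 2) in the same group order. The annotation lists the same transcripts for both probe sets of a gene, so that they are not separate evidence. It does not state the locus each probe set was designed to, and metallothionein genes are alike enough that probes may be shared among them.

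Mt3, best known from the brain, did not move with them. It read 6.42 to 6.64 with control plasma, 6.10 to 6.47 before NHD, 6.23 to 6.52 after NHD, and 6.25 and 5.99 with phenylephrine. All of these lie below the median probe set of the array (6.99), and the level of an absent transcript cannot be read from these files.

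Mtf1, the factor that responds to zinc, had its highest group mean with control plasma (9.93) and its lowest with phenylephrine (9.17), opposite to the group means of Mt1. Control arrays read 9.88, 10.04 and 9.88, and phenylephrine arrays 9.15 and 9.19, below every plasma array. Before NHD it ran from 9.29 to 10.14 (median 9.75) and after NHD from 9.30 to 10.01 (median 9.39), so that these groups overlap almost fully. Replicate 4 was the highest in each of them, and before NHD the same array was also the highest in Mt1.

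Slc30a1, the zinc exporter of the plasma membrane, varied most before NHD, from 7.12 to 8.55 (median 7.81). It read 7.91, 8.10 and 7.93 with control plasma, 7.81 to 8.68 after NHD (median 8.01), and 8.23 and 8.25 with phenylephrine. No plasma group is separate from another here.

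Slc39a10, an importer of zinc into the cell, ran opposite to Mt1 and Mt2A. Control arrays read 9.87, 9.97 and 9.71. Before NHD, replicates 1 to 6 read 9.57, 9.50, 9.78, 8.73, 9.64 and 8.75. Replicates 4 and 6, the highest of this group in Mt1, were the lowest in Slc39a10, and replicate 3 lay within the control range. After NHD arrays read 8.66, 8.42, 8.86, 8.84, 8.66 and 8.74, all below the controls, and phenylephrine arrays 8.43 and 8.05.

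Slc39a14, which imports zinc and also iron, differed less. It read 10.18, 10.60 and 10.11 with control plasma, 9.66 to 10.72 before NHD (median 10.27), 9.83 to 10.26 after NHD (median 10.04), and 9.87 and 9.78 with phenylephrine. Before NHD replicate 4 was the lowest of all 17 arrays.

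**Figure D2:**
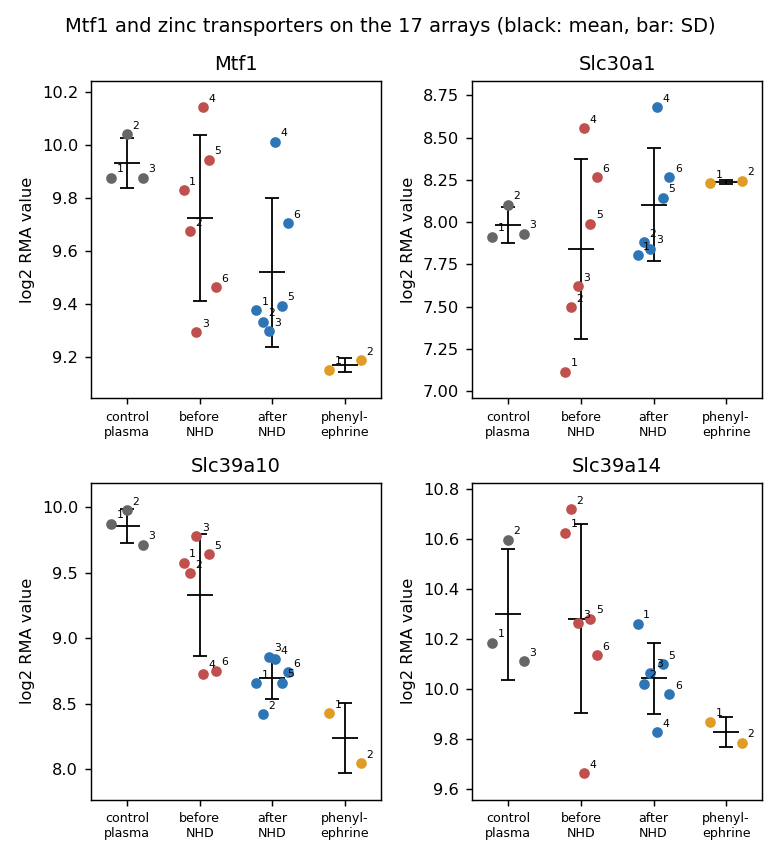
Log2 RMA values of Mtf1 and of the zinc transporters Slc30a1, Slc39a10 and Slc39a14 by group, with points, replicate numbers, means and SD bars as for the metallothioneins. Slc39a10 falls from 9.71 or more in control arrays to 8.86 or less in after NHD arrays, with the before NHD arrays on both sides, and Slc30a1 overlaps between all plasma groups.

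Phenylephrine against control plasma is the comparison through which the metallothioneins were picked, and is given as a description. Mt1 was 3.58 log2 units higher with phenylephrine, 11.96-fold, on its brighter probe set and 3.87 higher on the other. Mt2A was 2.68 log2 units higher, 6.41-fold, and 3.18 higher on its dimmer probe set. Slc39a10 was lower (-1.62), as were Mtf1 (-0.76), Slc39a14 (-0.47) and Mt3 (-0.40), while Slc30a1 differed by 0.26. Phenylephrine and control arrays did not overlap on any of the 9 probe sets, 5 of which were higher and 4 lower. Of all probe sets on the array, 24.6% were higher and 32.3% lower without overlap between these 2 and 3 arrays. With 2 phenylephrine arrays and no stated medium for them, an effect of the agonist and one of the medium cannot be told apart. Against the after NHD arrays phenylephrine was 0.69 log2 units higher in Mt1 and 0.58 in Mt2A on the brighter probe sets, and 0.46 lower in Slc39a10.

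Plasma from after NHD was compared with plasma from before NHD, a difference of means that uses none of the arrays that picked the members. Differences are those of group means, with the SE of limma's fit to all 17 arrays, whose pooled spread includes the control and phenylephrine arrays, and a call is an adjusted p under 0.05 after Benjamini-Hochberg adjustment over the 29214 probe sets. None of the 9 probe sets passed, while 0.397% of all probe sets did, and 5 of the 9 had an unadjusted p under 0.05, as did 18.5% of all. The Mt1 differences were 1.71 ± 0.38 (SE; adjusted p = 0.0606) and 1.76 ± 0.39 (SE; adjusted p = 0.0594), 3.27-fold and 3.40-fold. Those of Mt2A were 1.21 ± 0.40 (SE; adjusted p = 0.120) and 1.44 ± 0.48 (SE; adjusted p = 0.126). The Slc39a10 difference was -0.63 ± 0.17 (SE; adjusted p = 0.0845). The remaining members differed by -0.24 to 0.26, with adjusted p from 0.343 to 0.538. These errors pool groups of unequal spread, since the SD of Mt1 was 1.12 before and 0.22 after NHD.

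Leaving out single arrays changed this count, together with the calls over the whole array, which ran from 0 to 2690 probe sets. Without before NHD replicate 4, or without replicate 6, 5 probe sets passed, those of Mt1 and Mt2A as higher and Slc39a10 as lower, with Mt1 at 2.02 (adjusted p = 0.00219) and 1.95 (adjusted p = 0.00807) on the brighter probe set. In these fits 9.06% and 9.21% of all probe sets passed. Without after NHD replicate 4 the 2 Mt1 probe sets passed (adjusted p = 0.0447 and 0.0442), with 2.19% of all. With the replicate number as a further term of the limma fit, the 2 Mt1 probe sets passed (adjusted p = 0.0494 and 0.0493), with 1.08% of all. In a fit of the before and after NHD arrays alone, the brighter Mt1 probe set had an adjusted p of 0.187, and 0 of the 29214 probe sets passed. Over 24 alternative settings the adjusted p of the brighter Mt1 probe set ran from 0.00219 to 0.187 and the difference from 1.52 to 2.02.

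Plasma from before NHD was then compared with control plasma. This comparison and the next share the 3 control arrays with the one that picked the members, so that a chance low value there would enter all of them. None of the 9 probe sets passed, against 4.93% of all probe sets, and 4 had an unadjusted p under 0.05 by limma, as did 25.1% of all. The 1439 probe sets behind that share became 0 in a fit of these groups alone and without control replicate 1 or 3, 2 with every array's SD as a covariate, and 5101 without before NHD replicate 5. The Mt1 differences were 1.18 ± 0.46 (SE; adjusted p = 0.131) and 1.36 ± 0.47 (SE; adjusted p = 0.0955). On both probe sets all 6 before NHD arrays lay above all 3 controls. The share of all probe sets that do so is not given here, so this separation is a description only. Mt2A differed by 0.88 ± 0.49 (SE; adjusted p = 0.268), Slc39a10 by -0.52 ± 0.21 (SE; adjusted p = 0.136) and Mt3 by -0.28 ± 0.11 (SE; adjusted p = 0.119). Without before NHD replicate 5, the array among the controls, the dimmer Mt1 probe set passed (1.52, adjusted p = 0.0394; range over 24 alternatives 0.0394 to 0.340). Slc30a1 differed by -0.14 ± 0.25 (SE; adjusted p = 0.764).

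Plasma from after NHD against control plasma gave the clearest differences. Mt1 rose by 2.89 ± 0.46 log2 units (SE; adjusted p = 0.000636) on the brighter probe set, 7.39-fold, and by 3.12 ± 0.47 on the other. Mt2A rose by 2.10 ± 0.49 (SE; adjusted p = 0.00493), 4.28-fold, and by 2.43 ± 0.59 on the dimmer one. Slc39a10 fell by 1.16 log2 units, with an SE of 0.21 (adjusted p = 0.00116). Mtf1 (-0.41 ± 0.18, SE; adjusted p = 0.0951), Slc39a14 (-0.26 ± 0.18), Slc30a1 (0.12 ± 0.25) and Mt3 (-0.12 ± 0.11) did not pass. So 4 of 9 probe sets were called higher and 1 lower, where 12.9% of all probe sets were called higher and 15.3% lower. The 4 higher ones belong to Mt1 and Mt2A alone and so are not separate evidence. At 1 probe set per gene, 16.7% of all genes were called higher and 16.3% lower. Cardiomyocyte markers such as Ryr2 (1.60) and Myh6 (0.84) were also called higher in this comparison, and their part in the member differences was not tested.

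Each of these 5 calls was made whichever of the 17 arrays was left out. Mt2A did not pass once the limma fit held every array's SD as a covariate (1.35 and 1.44, adjusted p = 0.0831 and 0.105). Its lowest adjusted p over the alternatives were 3.74e-06 and 4.35e-06. With the covariate 10.3% of all probe sets passed, against 28.2% in the main fit. Array SDs were 2.24 to 2.32 for control plasma and 2.32 to 2.34 after NHD, so that the covariate in part follows the groups compared. Mtf1 was called lower without after NHD replicate 4 (-0.51, adjusted p = 0.0262) and without both samples numbered 4 (adjusted p = 0.0119), the adjusted p over 24 alternatives running from 0.00900 to 0.377.

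**Figure D3:**
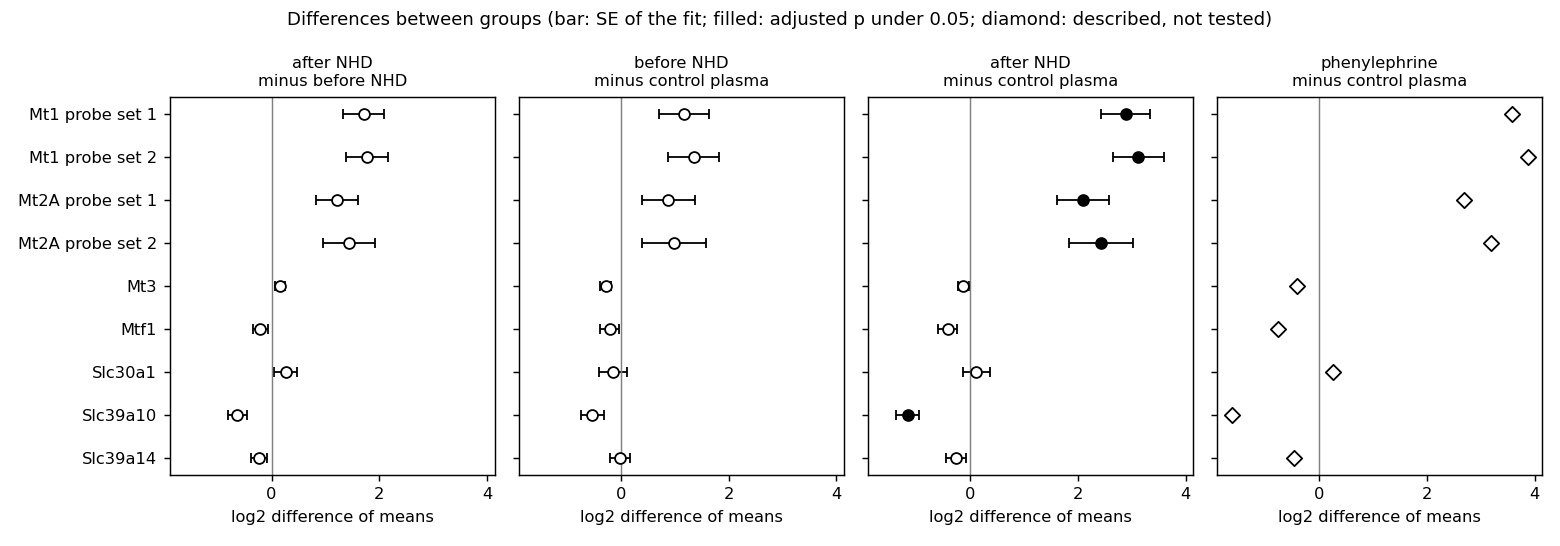
Log2 differences of group means for the 9 member probe sets in 4 comparisons, with the SE of the fit as bars. Filled circles have an adjusted p under 0.05 and diamonds are described without a test. Mt1, Mt2A and Slc39a10 are filled in after NHD minus control plasma, at 2.10 to 3.12 and -1.16, and open in the comparisons with before NHD.

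Relative to the control mean, the members can be followed array by array. Mt1 was 0.24 to 0.34 log2 units above that mean in before NHD replicates 1, 2 and 5, 1.11 above it in replicate 3, and 2.71 and 2.40 above it in replicates 4 and 6, against 2.54 to 3.20 in the after NHD arrays. Mt2A in the same 6 before NHD arrays was at 0.15, -0.55, 1.47, 1.79, -0.03 and 2.47, so that replicate 3 lay nearer the after NHD range (1.63 to 2.36) in Mt2A than in Mt1. Slc39a10 was 1.12 and 1.10 below the control mean in replicates 4 and 6, within the after NHD range of 0.995 to 1.43 below, and 0.08 to 0.36 below it in the other 4.

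**Figure D4:**
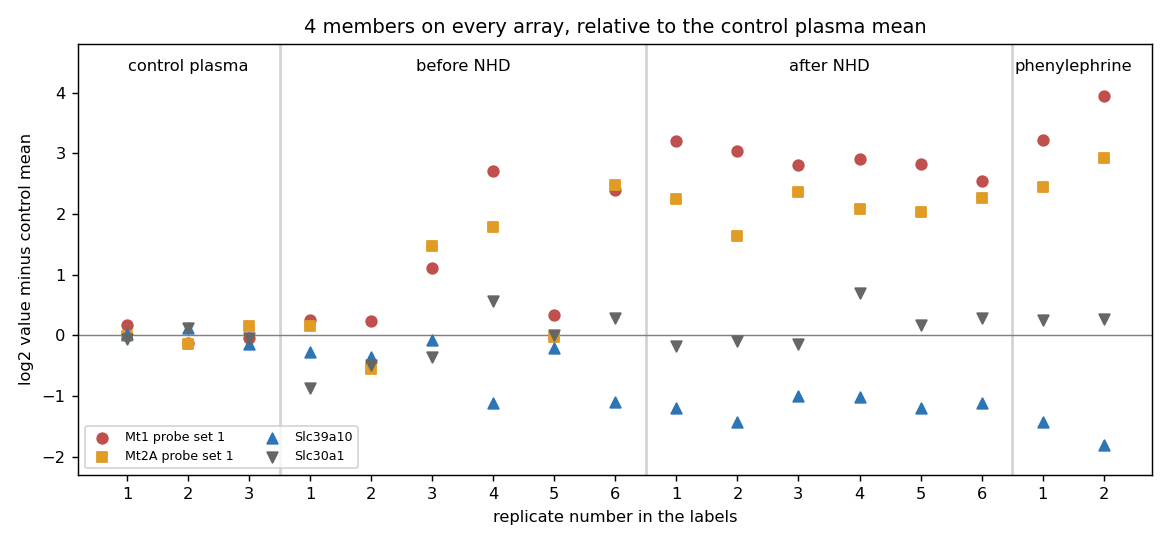
Log2 value minus the control plasma mean for Mt1 and Mt2A (brighter probe sets), Slc39a10 and Slc30a1 on each of the 17 arrays, by group and replicate number. Before NHD replicates 4 and 6 carry Mt1 at 2.71 and 2.40, the first within and the second just below the after NHD values, and Slc39a10 at -1.12 and -1.10, within them, while replicates 1, 2 and 5 lie near the control mean in Mt1.

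Fibroblast averages went with Mt1 on some arrays and not on others. Both phenylephrine arrays were high in both (9.79 and 9.54), as was before NHD replicate 6 (9.58), and before NHD replicates 1, 2 and 5 (7.36, 6.72 and 6.92) were low in both. Before NHD replicate 4 had a fibroblast average of 6.76 with Mt1 at 11.69, replicate 3 had 9.52 with Mt1 at 10.08, and after NHD replicates 2 and 4 had 7.19 and 6.89 with Mt1 at 12.01 and 11.88. Of the 8 fibroblast markers none was called in any of 4 comparisons (after against before NHD, and each of the other 3 groups against control plasma), with medians of 0.53 after against before NHD and 1.45 with phenylephrine against control. Mt2A was lowest after NHD in replicate 2 and highest in replicate 3, the array with the highest fibroblast average of that group (9.35). Before NHD it was highest in replicate 6, whose fibroblast average was the highest of that group too (9.58). Other arrays went the other way. After NHD replicate 4, with the lowest fibroblast average of its group, had Mt2A at 12.38, above replicate 5 (12.33, fibroblast average 8.39). Before NHD replicate 4 had Mt2A at 12.09, above replicate 3 (11.78), although its fibroblast average was lower. The part of the fibroblast share in the Mt1 and Mt2A values was not tested.

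The genes whose pattern came closest to Mt1 were sought among 14464 named genes by the root mean square difference over the 17 arrays after each gene's control mean was subtracted. They were Pbk (0.41 log2 units), Plk1 (0.43), Ccna2 (0.48), Lta4h (0.50) and Ccnb2 (0.50), where the median gene lay at 2.38. Pbk, Plk1, Ccna2 and Ccnb2 act in mitosis, and Lta4h makes leukotriene B4. Plk1, for example, read 7.11 to 7.27 with control plasma, 6.78 to 9.71 before NHD, 9.63 to 10.51 after NHD, and 10.10 and 10.57 with phenylephrine. Closest to Mt2A were the calcium pump Atp2b4 (0.40), the replication factor Mcm5 (0.41), the histone variant Macroh2a2 (0.45), Ehd3 (0.47) and the mitochondrial carrier Slc25a24 (0.52), with the median gene at 1.83. Mt1 and Mt2A themselves differed by 0.69 on this measure, more than each did from these genes. The measure takes in the size of a change, and all genes share the same 17 arrays and their division into groups.

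The other zinc genes were taken from a list of 22, namely Mt4 and the remaining members of the Slc30 and Slc39 families, all of which were measured, each by its brightest probe set. After against before NHD none of them was called by limma, where 0.483% of 14506 genes were. An unadjusted p under 0.05 was found for 2 of the 22, and for 18.5% of all probe sets. The smallest p belonged to Slc30a3, which loads zinc into synaptic vesicles (-0.75 ± 0.22, SE; adjusted p = 0.0944), Slc39a11 (0.26 ± 0.08), Slc30a4 (0.33 ± 0.18) and Slc39a1 (-0.20 ± 0.11). The list median was -0.07, that of all genes -0.01.

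Before NHD against control plasma, 2 of the 22 fell and 0 rose, where 2.09% of all genes fell. Slc39a7, which releases zinc from the endoplasmic reticulum, fell by 0.71 with an SE of 0.15 (adjusted p = 0.0254), from 9.93 to 10.05 in control arrays to 8.85 to 9.68 before NHD. Slc30a6, which with Slc30a5 feeds zinc to enzymes of the secretory pathway, fell by 0.46 with an SE of 0.10. The list median was -0.21 and that of all genes -0.05. The count was 0 without control replicate 1 or 3, where 0 of all 29214 probe sets passed, and 0 without before NHD replicate 2 (0.873% of all probe sets). It was 4 without before NHD replicate 3 (6.38%), 7 without replicate 5 (17.5%), and 1 without replicate 6 (1.46%) or control replicate 2 (4.75%). In the main fit 4.93% of all probe sets passed.

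After NHD against control plasma, 10 of the 22 fell and 2 rose, where 16.3% of all genes fell and 16.7% rose. Slc30a3 fell by 1.51 with an SE of 0.27 (adjusted p = 0.000988), from 10.90 to 11.15 in control arrays to 9.35 to 9.77 after NHD. Slc39a6, the closest relative of Slc39a10 among the importers, fell by 1.21 with an SE of 0.42 (adjusted p = 0.0424), Slc39a7 by 0.88, Slc39a2 by 0.67, the plasma membrane importer Slc39a1 by 0.61, Slc39a13 by 0.55, Slc30a6 by 0.51, Slc39a9 by 0.37, Mt4 by 0.36 and Slc30a5 by 0.35. Slc30a4, a vesicular zinc transporter, rose by 0.61 ± 0.22 and Slc39a11 by 0.53 ± 0.10. The list median was -0.25 and that of all genes -0.07. Without control replicate 1 the count of 12 became 6, 5 lower and 1 higher, and without control replicate 3 it became 8. A fit with every array's SD as a covariate gave 6. In these 3 fits 15.6%, 17.3% and 10.3% of all probe sets were called, against 28.2% in the main fit.

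Phenylephrine against control plasma was tested for this list, which holds Mt4 and the Slc30 and Slc39 genes that are not among the members. Its zinc topic came from the same comparison, so that this is no independent evidence. Of the 22, 6 fell and 1 rose, where 11.9% of all genes fell and 11.7% rose. Slc30a3 fell by 1.44 with an SE of 0.35 (adjusted p = 0.00908), Slc39a7 by 1.10, Slc30a6 by 0.77, Slc39a13 by 0.75, Slc39a1 by 0.51 and Slc39a9 by 0.49, and Slc39a11 rose by 0.50 ± 0.13. The list median was -0.27 and that of all genes -0.06. Without phenylephrine replicate 1 the count of 7 became 3, and without replicate 2 it became 2. With only the 2 groups compared it was 12. The shares of all genes called in these alternative fits are not given here, so the changed counts are a description only. Mt4, a metallothionein of squamous epithelium that neighbours Mt3 on chromosome 19, differed by -0.11 ± 0.15 and read 5.55 to 6.34 over all arrays.

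**Figure D5:**
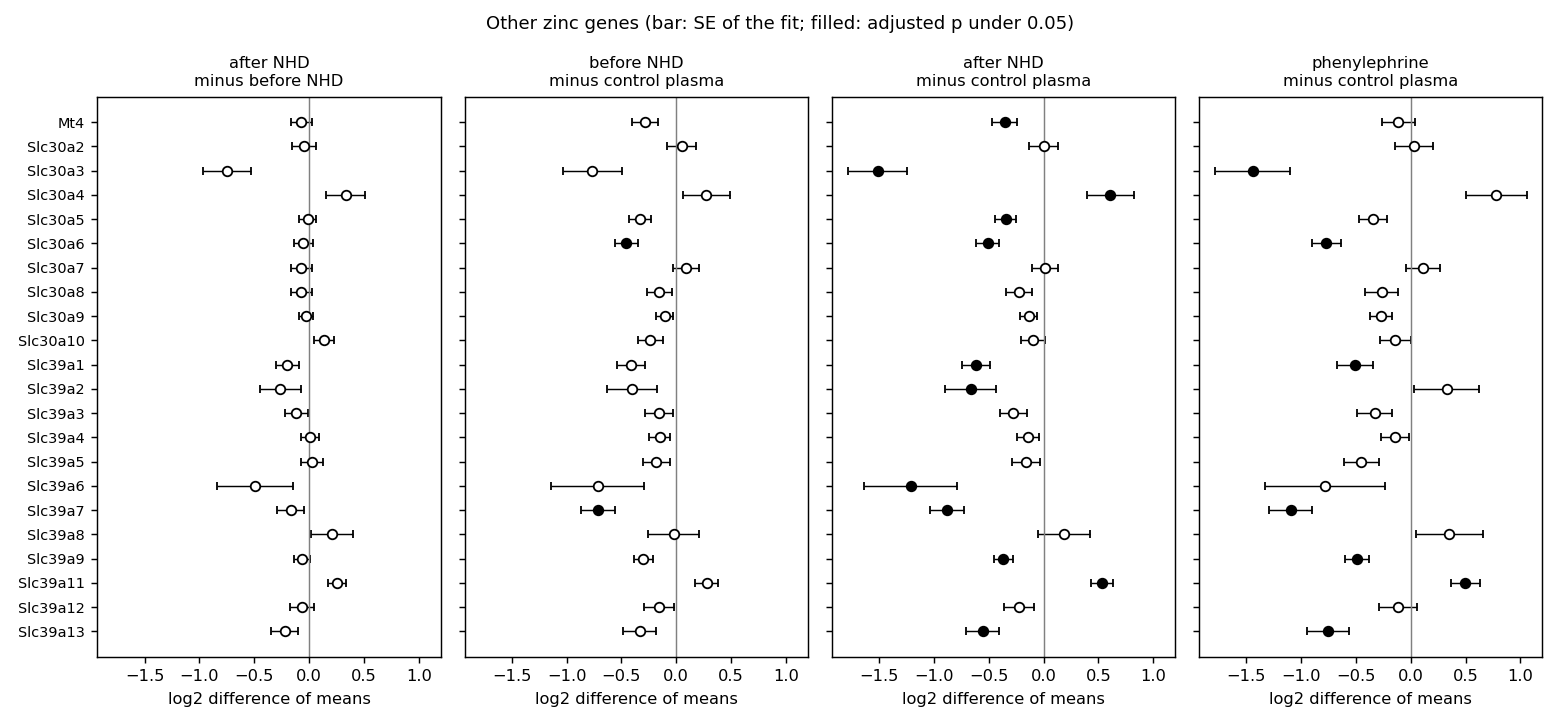
Log2 differences of group means for the 22 other zinc genes in 4 comparisons, with the SE of the fit as bars and filled circles where the adjusted p is under 0.05. After NHD minus control plasma has 12 filled circles, 10 of them below 0, while after NHD minus before NHD has none.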

How the data were processed

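Each of 17 samples gave RNA for 1 Affymetrix array, and the labels do not state whether each came from a separate culture. The deposited log2 values come from RMA, which the submitters' processing notes name; its version is not given in the sources used here. As a method, RMA subtracts background, quantile-normalizes and summarises probes. Quantile normalization removes a shift shared by most genes, and differences near the ceiling are compressed. Of 29214 probe sets, 15310 had 1 gene symbol, 323 had several and 13581 had none in the annotation given; the GRCr8 gene table, matched by Entrez number, brought 15279 symbols up to date. The probe set with the highest mean stood for a gene where 1 was needed.

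All probe sets were fitted with limma 3.58.1 (R 4.3.3; lmFit, eBayes) in 1 model of the 4 groups (residual degrees of freedom 13, prior 3.32) with two-sided tests and Benjamini-Hochberg adjustment over 29214. The script was tested on simulated data. The number of arrays limits the precision. Named were all member probe sets, every zinc list gene that passed (otherwise up to 4 by smallest p) and the 5 genes nearest in pattern to Mt1 and to Mt2A. Members and lists were chosen with earlier results of these data known. The replicate number is the last in each title; those of 2 before NHD samples carry 2 numbers (1 and 2, 1 and 3), and these were counted as replicates 2 and 3. Alternatives were the brighter probe sets alone (those not below the median mean), a second quantile normalization, fits of only the groups compared, a trended robust prior, the replicate number as a block, no samples numbered 4, every array's SD as a covariate, and each array left out in turn.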

Additional observations from a re-analysis of the deposited data

Results flagged for a closer look

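Single arrays lying far from the rest of their group were sought in 82 groups of 6 arrays, and chance marks about 1 in 20. None of the 9 member probe sets held such an array. In the other zinc genes, Slc30a5 read 9.15 in before NHD replicate 6, below the next value of 9.45, and Slc30a9 read 11.24 in after NHD replicate 4, above the next of 11.10. Among the genes nearest in pattern to the metallothioneins, Ccna2 read 9.69 in after NHD replicate 4, below the next value of 10.30, and Ehd3 read 7.37 in the same array, below the next of 8.21.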

How the results depend on the processing

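The number of member probe sets called after against before NHD (0, with 0.397% of all probe sets called) became 2 on the brighter probe sets (2.69% of all), 2 with a block for the replicate number (1.08%), 3 without the samples numbered 4 (9.16%), and 0 to 5 with single arrays left out. Before NHD against control plasma (0, with 4.93% of all probe sets called) it became 1 with the block (Slc30a1, -0.49, adjusted p = 0.0284), with 11.4% of all. With single arrays left out it was 0 to 1 (0% to 17.5%). After NHD against control plasma (5, with 28.2% of all probe sets called) it became 3 with every array's SD as a covariate (10.3%). With single arrays left out it was 5 to 6 (15.6% to 30.3%). For the other zinc genes, the count after against before NHD (0) became 2 without the samples numbered 4 (9.16% of all probe sets). With single arrays left out it was 0 to 2 (0% to 9.21%). Before NHD against control plasma (2) it became 5 on the brighter probe sets (13.1% of these) and 4 with a second quantile normalization (5.56% of all probe sets). It became 0 with only the groups compared (0%), 0 with every array's SD as a covariate (0.00685%), and 0 to 7 with single arrays left out (0% to 17.5%). After NHD against control plasma (12) it became 6 with every array's SD as a covariate and 6 to 12 with single arrays left out, and for phenylephrine (7) 12 with only the groups compared and 2 to 9 with single arrays left out. The Mt2A difference between phenylephrine and control plasma (2.68) was 3.18 on the other probe set, and with single arrays left out it ran from 2.44 to 2.92, and that of Mt1 from 3.21 to 3.95. Where a fit keeps 1 phenylephrine array, that array is assumed to vary like the other groups. The shares of all genes called for phenylephrine under the alternatives are not given here. Small differences that did not pass changed sign: Slc39a14 before NHD against control plasma (-0.02) was 0.15 with the block, 0.11 without the samples numbered 4, 0.045 with every array's SD as a covariate, and -0.11 to 0.13 with single arrays left out (0.11, 0.01 and 0.13 without before NHD replicates 4 and 6 and control replicate 2). Slc30a1 after NHD against control plasma (0.12) was -0.22 with the block and -0.18 with the SD covariate, and before NHD against control plasma (-0.14) it ran from -0.28 to 0.0030 with single arrays left out (0.0030 without before NHD replicate 1). Mt3, below the median brightness, has no value on the brighter probe sets. All probe sets called after against before NHD and before NHD against control plasma (116 and 1439) became 316 and 3329 with the block, 0 and 0 with only the groups compared, 65 and 2 with the SD covariate, and 2677 and 1429 without the samples numbered 4. With the block the Mt1 probe sets passed after against before NHD (adjusted p = 0.0494 and 0.0493; Mt1 was higher after NHD in 6 of 6 numbers, Slc39a10 lower in 5), and Mtf1 after NHD against control plasma was called with it (-0.57, adjusted p = 0.00900). Same-numbered before and after NHD arrays correlated in their deviations from the group mean at -0.03 to 0.60, over 0.1 in 4 of 6. Of the before NHD arrays, 3 of 6 correlated best with their own number. These values do not settle whether equal numbers share a culture or plasma donor. The labels do not state it, and for that reason the main fit did not take the numbers as pairs. The causes were not tested. Of 645 values of single member probe sets under an alternative, 610 kept their direction and their side of the threshold, 24 newly passed, 2 no longer passed and 9 changed sign.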
